A study of Mus musculus with 9 samples.

Results

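The 101 genes described here were present in mouse retinal organoids at differentiation day 10 (DD10) and lower by a log2 of at least 2.0 on both later sampling days, DD16 as well as DD23, within each of 3 cell lines. They were picked from 37034 gene names on the array, of which 19888 were well above background on all 3 DD10 arrays. The highest-signal probe of each gene was used, its level being log2 of the processed intensity over the array's 75th percentile. Another 20 genes met the same values and were left out by name, among them Wnt ligands, R-spondins and pigment genes. The fall from DD10 to the later days therefore chose the genes, and values of that fall are given as a description. The word lost stands for this fall below, with or without signal left on the later arrays. Of the 101, 65 carry established symbols, 21 are predicted genes, clones or accessions, and 15 are long intergenic non-coding RNA (lincRNA) probes named by position.

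The organoids are retina-like aggregates grown in floating culture from mouse ES or iPS cells by the SFEBq method. The lines were wild type (WT), a knockout of Bhlhb4 (B4KO) and a knockout of Islet-1 (Isl1KO), with no other allele or agent given in the labels. Every line gave 1 sample for each of these days, with 1 array per line and day and 5 organoids pooled for each array, so no combination of line and day has a replicate. The sources used here do not give how many clones stand behind a line or where the engineered deletions lie. All B4KO arrays were on 1 slide and all WT and Isl1KO arrays on another, so B4KO and slide cannot be told apart. All Isl1KO arrays lay in row 1 of their slide and all WT and B4KO arrays in row 2, so Isl1KO and row cannot be told apart. Day and the column of the array on its slide cannot be told apart either. Between 57.3% and 67.8% of 59305 gene spots were well above background on an array, and none was saturated. As a check of the labels, Isl1 read -0.60, 1.45 and -0.05 at DD10, DD16 and DD23 in WT and -1.24, -0.44 and -1.63 in Isl1KO with the probe that separated these lines more. A second Isl1 probe read -1.25, 0.85 and -0.66 in WT and -0.88, 0.10 and -0.92 in Isl1KO. Both probes were above background on all 9 arrays. Bhlhb4, on the array as Bhlhe23, read -3.20, -2.82 and -4.55 in WT and -3.41, -4.88 and -6.64 in B4KO, and -2.95, -4.55 and -6.56 in Isl1KO. The Bhlhe23 probe was above background on 6 of the 9 arrays. Its B4KO values at DD16 and DD23 and its Isl1KO value at DD23 are background readings. Whether any of these probes lies in a deleted part is unknown.

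In early organoids the eye field sits beside forebrain and dorsal midline tissue, and Wnt and bone morphogenetic protein (BMP) signals help to set which cells become neural retina, pigment epithelium or telencephalon. Neuroepithelial cells then divide, and genes of that early state are shut off as retinal neurons are born. The retinal identity of the samples was read from 15 marker genes, of which 13 were above background on each DD10 array, 14 on each DD16 array and all 15 on each DD23 array. Their summed level, in units of the array's 75th percentile, was 115 in WT, 207 in B4KO and 157 in Isl1KO at DD10, and between 295 and 448 on the later arrays. Nrl, the rod determination factor, was at background on all 3 DD10 arrays.

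The plot of all 9 arrays shows the step between DD10 and the later days in every line. Signals of different probes are not compared as amounts of RNA. Mean levels at DD10 ran from -4.11 to 3.75, with a median of -1.11 against -0.02 for all genes above background at DD10, and 30 of the 101 were above the 75th percentile. The median fall was 3.097 to DD16 and 3.71 to DD23, or 2.60 and 3.11 with arrays at background raised to the lowest signal well above background on that array. At DD16 35 genes were at background on all 3 arrays, and at DD23 45 were. In all, 38 genes stayed above background on all 6 later arrays, 33 on none and 30 on some. Organoids are bulk samples, so fewer cells that make a transcript and less transcript per cell cannot be told apart. In an additive model of line and day fitted with limma to 23424 genes, 101 of 101 passed as lower at DD16 than DD10, where 18.9% of all genes tested did, and 101 at DD23, where 29.2% did. The rule fixes both counts.

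**Figure D1:**
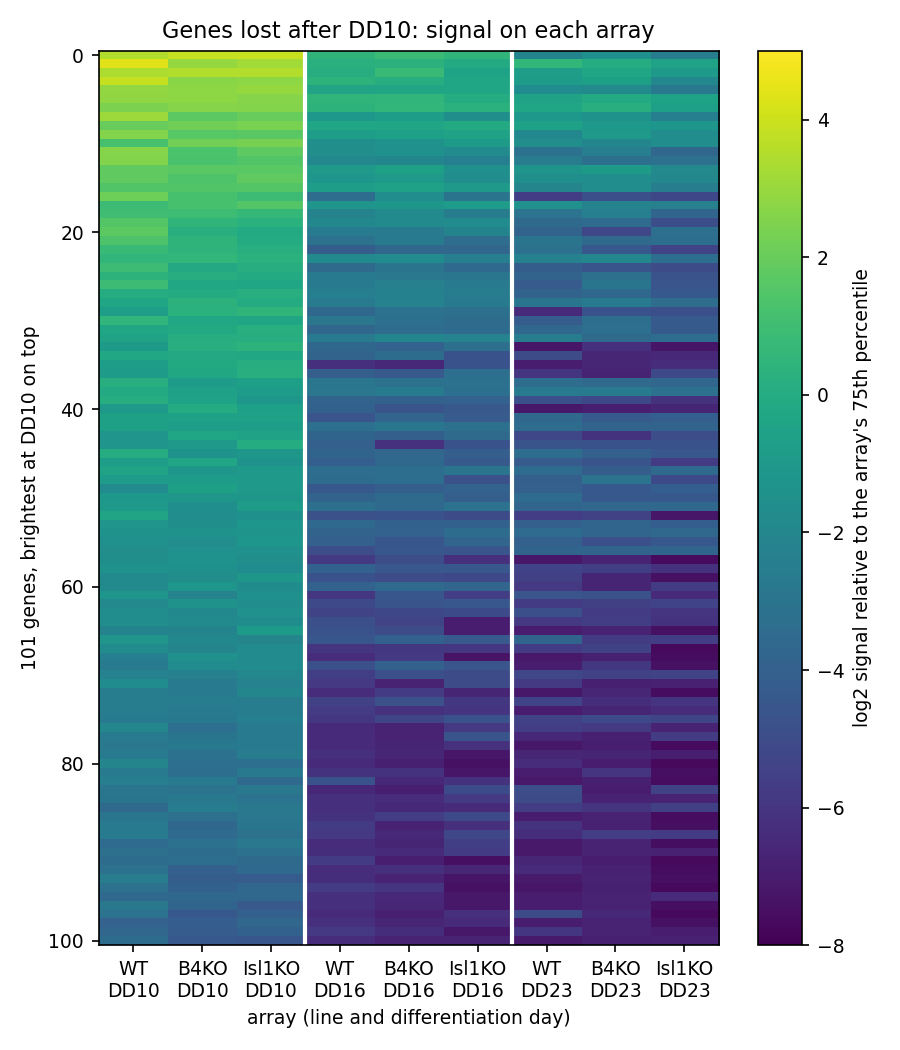
Log2 signal relative to the array's 75th percentile (colour) for the 101 genes (rows, brightest at DD10 on top) on the 9 arrays (columns, grouped by day). The step lies between DD10 and DD16 in WT, B4KO and Isl1KO alike, and rows in the lower part reach background values at the later days.

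Inhibitors and a target of Wnt signalling were among the genes lost. Wif1, a secreted protein that binds Wnt ligands, had levels of 2.87 in WT, 2.79 in B4KO and 2.61 in Isl1KO at DD10. They were 0.51, 0.58 and 0.03 at DD16 and -0.51, -0.04 and -0.48 at DD23. The lines lay close together on each day, and no day overlapped the next. Dkk1, which blocks the Wnt co-receptors, went from -1.01, 0.00 and -0.64 to -3.94, -4.65 and -4.36, and then to background on all 3 DD23 arrays, at least 22.3-fold below DD10. Sp5, a zinc finger factor known as a direct Wnt target, went from 2.64, 1.34 and 1.78 to -1.55, -1.40 and -1.75, and to -3.17, -2.45 and -3.69 at DD23. All 3 genes kept falling from DD16 to DD23 in the model, by 0.71 for Wif1 (SE 0.13, adjusted p = 0.00847) and 1.54 for Sp5 (SE 0.38, adjusted p = 0.0219). Dkk1 was at least 1.64-fold lower at DD23 than at DD16 (adjusted p = 0.00245).

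The promoters of Sp5 and Dkk1 are shown because Sp5 is a textbook Wnt target and Dkk1 is known to be one as well. Each is a window of 300 bases around the start of the gene, from RefSeq (GRCm38.p6), read 5′ to 3′ on the gene's strand. Capitals mark the TCF/LEF core CTTTGAT and the SOX core ACAAAG on either strand, which cannot start at the same base. Sp5 is at chr2:70474673-70474972 on the plus strand and holds 1 TCF/LEF core and 3 SOX cores. Dkk1, at chr19:30549447-30549746 on the minus strand, holds 1 SOX core and 0 TCF/LEF cores.
Sp5: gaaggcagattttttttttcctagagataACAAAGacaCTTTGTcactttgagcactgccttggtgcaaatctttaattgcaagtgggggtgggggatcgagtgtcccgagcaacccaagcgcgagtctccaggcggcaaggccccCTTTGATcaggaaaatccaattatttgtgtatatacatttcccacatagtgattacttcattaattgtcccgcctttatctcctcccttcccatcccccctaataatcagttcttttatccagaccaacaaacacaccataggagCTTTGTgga
Dkk1: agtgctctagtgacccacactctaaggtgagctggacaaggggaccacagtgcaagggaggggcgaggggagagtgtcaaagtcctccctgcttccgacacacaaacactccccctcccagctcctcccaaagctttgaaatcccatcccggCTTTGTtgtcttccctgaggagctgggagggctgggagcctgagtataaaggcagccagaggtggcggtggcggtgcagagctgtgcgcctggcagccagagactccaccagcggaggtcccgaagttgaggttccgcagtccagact
The Wif1 window held no core of either kind. Of 69 genes with a RefSeq symbol 49 had a promoter in the table, 61 windows in all. The TCF/LEF core was in 4 of these 61 windows (6.56%), against 3.73% of all 32851 windows. The 4 include a window of Sgk1, which has 6 windows. The SOX core was in 22.95% against 18.7%. An E-box of the form CAGCTG was in 29.5% against 16.3%, and a GC box (GGGCGG) in 50.8% against 35.7%. A TATA box (TATAAA) was in 16.4% against 13.6%, CCAAT in 34.4% against 37.4%, the homeodomain core TAATTA in 3.28% against 5.29% and TAATCC in 9.84% against 7.06%. Both strands were searched, and these shares are descriptions of letters in the windows.

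Of the BMP and activin pathway 3 genes were lost. Fst, follistatin, which binds activin and BMPs, had -1.86, -1.35 and -1.62 at DD10 in WT, B4KO and Isl1KO, and -5.12, -4.62 and -4.47 at DD16, where 1 array was above background. Smad9, a transducer of BMP receptors, went from -1.77, -1.17 and -1.70 to -3.92, -3.55 and -3.74, and was at background at DD23, at least 11.2-fold below DD10. Chrdl2, a secreted BMP antagonist, was dim at DD10 and at background on all later arrays. Fst and Smad9 were at background on all DD23 arrays and passed as lower there than at DD16, Fst by at least 1.22-fold (adjusted p = 0.0049) and Smad9 by at least 2.44-fold (adjusted p = 0.00289). Among 39 tested genes of a list of BMP and TGF beta pathway genes and their inhibitors, without the receptors of these ligands, 12 were lower and 8 higher at DD16 than at DD10. Of all genes tested, 18.9% were lower and 21.9% higher. The list's median was 0.04 against 0.03 for all genes. Fst was the 1 gene of that list among the 101. The list's other large changes were Bmp5 at -4.28 (adjusted p = 0.0159, limma), with 1 DD16 array above background, Bmp6 at -2.30, Bmp4 at -2.30 and Gdf15 at 4.18.

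The 10 transcription and chromatin factors had mean levels at DD10 from -3.09 to 3.75, and 7 of them were above background on at least 1 DD16 array. Hmga2, an AT-hook chromatin protein of dividing progenitors, had 3.50 in WT, 3.86 in B4KO and 3.90 in Isl1KO at DD10. It had 0.46, 0.86 and 0.49 at DD16 and -2.11, -1.50 and -2.48 at DD23, so it dropped by a mean of 3.15 over the earlier interval and again over the later. The later step was 2.63 (SE 0.19, adjusted p = 0.000793), and Hmga2 stayed above background on every array. Meox2, a homeobox factor of somite and limb mesoderm, had -0.24, -0.15 and -0.19 at DD10 and -3.85, -3.42 and -4.71 at DD16. It was at background on all 3 DD23 arrays, at least 28.5-fold below DD10. Tbx20, a T-box factor best known from the heart, had -2.67, -1.74 and -1.70 and was at background by DD23, at least 7.95-fold lower.

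Forebrain factors were among these 10. Dmrt3, of the dorsal telencephalon, had 0.89 in WT, -0.20 in B4KO and -0.30 in Isl1KO at DD10 and -2.61, -2.35 and -2.67 at DD16. Ebf2, a helix-loop-helix factor of early neurons and of Cajal-Retzius cells, had 1.52, 0.48 and 0.31 at DD10 and -1.95, -1.81 and -1.73 at DD16. In both genes WT stood above both knockouts at DD10 and not at DD16. Ebf2 then fell by 2.11 (SE 0.37, adjusted p = 0.00707) and Dmrt3 by 1.37 (SE 0.44, adjusted p = 0.0488) to DD23. Among 21 tested genes of a forebrain list, 11 were lower and 4 higher at DD16 than DD10, against 18.9% and 21.9% of all genes tested. The list's median was -1.84, against 0.03 for all genes. Dmrt3 and Sp5 are among the 11, and the rule fixed their fall. It also fixed that of Dmrta1 and Emx1, which were lower too and left out by name. Of the 11, 8 lie outside the 101. Of the other genes of that list, Dmrta2, a paralogue of Dmrt3, was lower by 2.67 with adjusted p = 0.00363 by limma.

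Hosts of the neural microRNA miR-9 were among the non-coding genes lost. The mouse genome has 3 Mir9 genes that give the same mature microRNAs, which act in neural progenitors and their differentiation. RefSeq (GRCm38.p6) places Mir9-1 within Gm3764 and Mir9-3 within Mir9-3hg, named AI854517 on the array. Both hosts are among the 101. Mir9-2 lies within C130071C03Rik, which is not. The mature sequences are shown because they are identical for all 3 hairpins, so the array's host probes are the only measure here that separates the genes. Capitals mark the seed, bases 2 to 8.
miR-9-5p: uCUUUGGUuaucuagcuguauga
miR-9-3p: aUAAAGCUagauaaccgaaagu
The arrays measured host transcripts and not mature miR-9.

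Gm3764 had 3.11 in WT, 1.74 in B4KO and 1.99 in Isl1KO at DD10. It had -1.08, -0.69 and -1.50 at DD16 and -1.08, -1.40 and -2.40 at DD23. Mir9-3hg had 2.58, 1.27 and 1.45 at DD10, -1.94, -2.04 and -2.38 at DD16, and -2.48, -3.20 and -3.16 at DD23. Every DD10 array lay above every later array in both hosts, and WT was highest at DD10. C130071C03Rik, by contrast, had 3.08, 1.93 and 2.13 at DD10 and lay between 1.78 and 2.04 on all 6 later arrays. Its difference of DD16 from DD10 was -0.50 (SE 0.26, adjusted p = 0.174 by limma). A second probe of C130071C03Rik had a mean of 0.57 at DD10, 1.40 at DD16 and 1.32 at DD23. Of other Gm3764 probes 1 was above background on the DD10 arrays, and it was lower at the later days by at least 0.68 in every line without reaching 2.0.

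**Figure D2:**
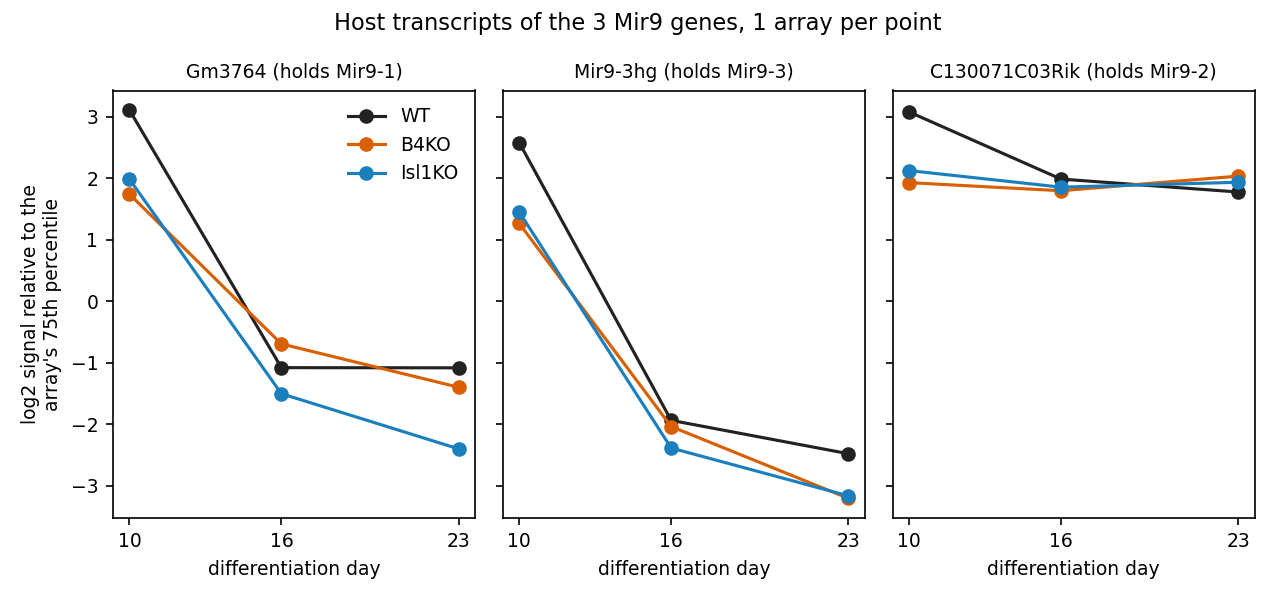
Log2 signal relative to the array's 75th percentile against differentiation day for the host transcripts of the 3 Mir9 genes, with 1 array per point and a line for each cell line. Gm3764 and Mir9-3hg drop between DD10 and DD16 in all lines, while C130071C03Rik stays between 1.78 and 2.04 at the later days.

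The neighbours of these hosts were lost with them only in part. Around Gm3764, 4 of 45 measured genes within 500 kb of the locus are among the 101, and they lie within 31 kb of each other (mm9, from the array design). These are AI849053, Gm3764 and 2 lincRNAs with probes at chr3:88029886-88029945 and chr3:88033785-88033844. The second of these had 4.39 in WT, 2.93 in B4KO and 3.18 in Isl1KO at DD10 and between -0.49 and 0.59 later. 4931402H11Rik, with its probe between those of the 2 lincRNAs, had means of 5.25, 5.35 and 5.19 at DD10, DD16 and DD23. Beside Mir9-3hg on chromosome 7, 2 lincRNAs and Rhcg were lost within 77 kb. A lincRNA with its probe at chr7:86659942-86660001, within 2 kb of the nearest lost lincRNA, had means of 3.66, 4.05 and 3.90.

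Rhcg, an ammonia channel of epithelia, had 2.14 in WT, 1.20 in B4KO and 0.90 in Isl1KO at DD10 and -3.37, -1.61 and -2.99 at DD16. It was at background on all DD23 arrays, at least 82.3-fold below DD10. From DD16 to DD23 it fell at least 4.90-fold (adjusted p = 0.0094).

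Genes lost after DD10 lay near each other in other places too. With a distance of 500 kb to the next, 37 of the 101 fell into 12 loci. Genes lost made up 21.6% of the 171 measured genes in these loci and 0.518% of 19483 measured genes with a position, and the loci are defined by the genes themselves. Genes are counted by array name, and names whose intervals overlap may stand for the same transcript. The largest was on chromosome 10 between the probe at 8661294 and that ending at 9347580, with 8 of 11 measured genes. It holds Samd5, 5830408B19Rik and 6 other non-coding or unnamed transcripts. Samd5, a SAM domain protein, had 1.84, 1.43 and 1.84 at DD10 and -1.16, -1.02 and -1.65 at DD16. Its neighbour 5830408B19Rik had 1.84, 1.69 and 1.67 and then -1.02, -0.61 and -1.47. Of the flanking genes, Sash1 had means of 1.63 at DD10 and 1.35 at DD16, and Stxbp5 rose from -1.19 to -0.54 (adjusted p = 0.00926, limma). A lincRNA on the opposite strand at chr10:9329076-9329135 was lower by 1.78 at DD16 and 1.45 at DD23, short of the 2.0 of the rule.

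**Figure D3:**
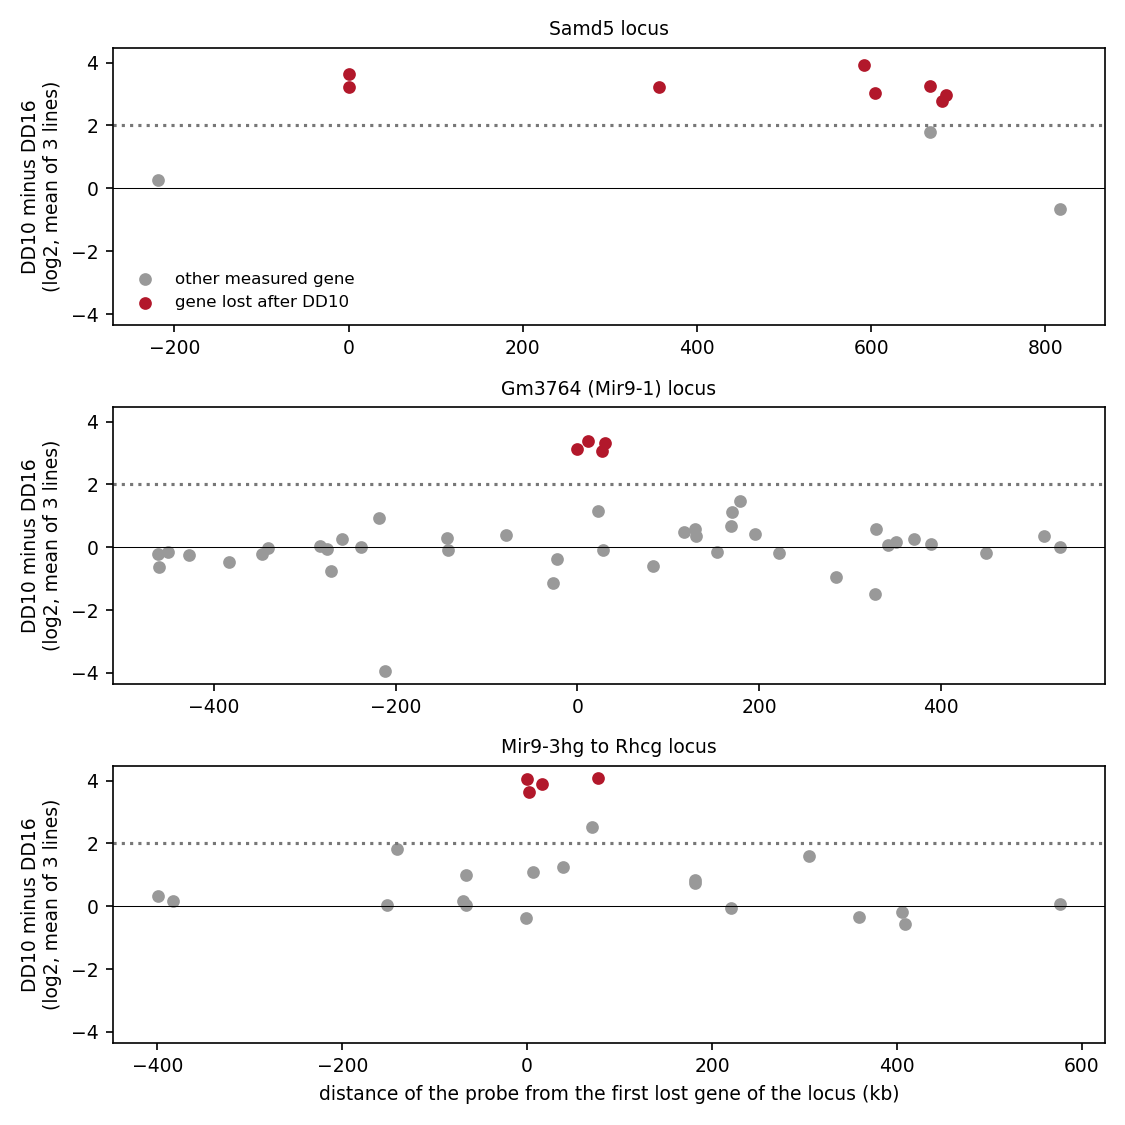
Mean log2 fall from DD10 to DD16 over the 3 lines (vertical axis) against the distance of each probe from the first lost gene of its locus (horizontal axis, kb) for 3 loci. Red points are genes of the 101, grey points other measured genes, and the dotted line marks a fall of 2.0. In the Samd5 locus 8 of 11 points are red, in the Gm3764 locus 4 of 45 and in the Mir9-3hg to Rhcg locus 4 of 23.

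A further 4 of 12 measured genes within 500 kb lay on chromosome 10 near Sgk1. Sgk1, the serum and glucocorticoid induced kinase, had 3.41 in WT, 3.52 in B4KO and 3.48 in Isl1KO at DD10, 0.08, 0.76 and -0.47 at DD16, and -0.72, -0.36 and -0.97 at DD23. The lines lay within 0.11 of each other at DD10. Raet1a, Raet1c and Raet1e, ligands of the killer cell receptor NKG2D, lie beside it. Raet1a, whose probe matched Raet1d in RefSeq, had 0.39, 0.11 and -0.03 at DD10 and -2.69, -2.79 and -2.89 at DD16. Raet1 genes are near-identical copies, so their probes may read each other's transcripts. Raet1b fell by a mean of 1.95 to DD16 and was not among the 101. The probe under that name matched Raet1e in RefSeq, as did the probe named Raet1e. On chromosome 3 Postn, Smad9 and Sertm1 lay within 507 kb, and 10 other measured genes around them did not meet the rule.

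Among 11 genes for secreted and matrix proteins, mean levels at DD10 ran from -3.40 to 3.11, and 7 of the 11 were above background on at least 1 DD16 array. Masp1, a protease of the lectin pathway of complement, had 3.84 in WT, 2.70 in B4KO and 2.79 in Isl1KO at DD10 and 0.38, 0.10 and -0.35 at DD16. Cxcl5, a chemokine for neutrophils, went from -0.78, -0.11 and 0.09 to -6.19, -6.53 and -4.75 at DD16, where 1 array was above background. Cxcl5 was at least 27.1-fold below DD10 at DD23. Of 14 tested chemokine and cytokine genes, 4 were lower and 3 higher at DD16, against 18.9% and 21.9% of all genes tested. Cxcl5, whose fall the rule fixed, is 1 of the 4. Cela1, an elastase, had -1.22, -1.04 and 0.03 at DD10 and -4.03, -6.15 and -4.75 at DD16. Bpifb5, of a family of lipid-binding secreted proteins, had -1.50, -1.37 and -1.59 at DD10 and was at background on all 6 later arrays, at least 8.95-fold lower at DD16.

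Postn, the matrix protein periostin, had 0.82, 0.46 and 0.18 at DD10 and -4.17, -3.71 and -3.69 at DD16. At DD23 it had -3.08 in WT, -4.40 in B4KO and -5.34 in Isl1KO, so WT rose by 1.09 where Isl1KO fell by 1.65. Of 3 other Postn probes above background at DD10, 2 met the rule. In a mesoderm and mesenchyme list, 5 of 11 tested genes were lower and 2 higher at DD16, against 18.9% and 21.9% of all genes tested. The list holds Postn and Meox2, whose fall the rule fixed. Prrx2 and Snai2 were lower by 2.37 and 1.91, and Twist2, at background at DD10, was at least 3.39-fold higher at DD16 (adjusted p = 0.0092, limma).

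Receptors numbered 5. Ackr3, a scavenging receptor for Cxcl12, had 2.42 in WT, 2.66 in B4KO and 2.57 in Isl1KO at DD10 and 0.41, 0.59 and 0.28 at DD16. It was among the genes nearest the threshold. Gpr143, a receptor of melanosomes in pigment cells, had -1.31, -1.48 and -1.68 at DD10 and -3.97, -4.45 and -4.47 at DD16, and was at background at DD23. It was at least 1.66-fold lower there than at DD16 (adjusted p = 0.00103). In a list of pigment epithelium genes 6 of 11 tested were lower and 1 higher at DD16, against 18.9% and 21.9% of all genes tested. Tyr was lower by 1.73 (adjusted p = 0.000343, limma). The rule fixed the fall of Gpr143 in this list and of Mitf, left out by name. Npr3, which clears natriuretic peptides, had -0.06, -0.56 and -0.79 at DD10 and between -3.27 and -2.58 on the later arrays.

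Channels and transporters numbered 6. Slc38a8, a glutamine transporter linked in humans to foveal hypoplasia, had 2.89 in WT, 2.79 in B4KO and 2.93 in Isl1KO at DD10. It had -0.39, -0.33 and -0.33 at DD16 and -1.68, -1.82 and -2.73 at DD23. Its second probe did not meet the rule, with a smallest fall of -0.03. Hvcn1, a voltage-gated proton channel, had 0.06, 0.02 and 0.17 at DD10, -2.36, -2.31 and -2.49 at DD16, and -3.85, -3.58 and -4.43 at DD23. Both genes varied little among lines at DD10 and DD16. Gjb2, connexin 26, was dim at DD10 (-3.04, -4.42 and -4.02) and is the gene nearest the threshold on the inside.

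Among signalling enzymes, Dusp9, a phosphatase of ERK, had -0.77 in WT, 0.29 in B4KO and 0.52 in Isl1KO at DD10 and -3.58, -3.10 and -3.22 at DD16. Mid1, a ubiquitin ligase bound to microtubules, had 1.97, 2.20 and 2.40 and then -0.30, -0.33 and -0.04. Of 6 other Mid1 probes above background at DD10 none met the rule, and their mean falls to DD16 ran from 0.63 to 2.03. Across the 101, 30 genes had another probe and 17 had another above background at DD10; 13 of those 30 probes met the rule.

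The 7 enzymes of metabolism had mean levels at DD10 from -2.98 to -0.07. Qprt, of NAD synthesis, had -1.23, -0.38 and -0.53 at DD10 and -3.79, -4.05 and -3.51 at DD16. Aass and Aadat act in lysine breakdown. Aass fell by a mean of 2.51 to DD16, and Aadat was at background on all later arrays, at least 3.31-fold lower at DD16. Cyp4f15, a cytochrome P450, was at background on all later arrays, at least 7.04-fold lower at DD16. C730037M02Rik, with no known role, and Ell3, an elongation factor, were likewise at background on all later arrays, at least 7.005-fold and 7.65-fold lower at DD16.

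Ccno and Cdc20b, which act in the making of multiple cilia, lie in 1 locus on chromosome 13, and genes between them did not meet the rule. Mcidas, a regulator of the same process, has its probe between theirs and had means of 4.11, 4.28 and 4.54 at DD10, DD16 and DD23. Gpx8, a peroxidase also between them, had means of 2.77, 1.72 and 1.16. Ccno had 2.61 in WT, 1.61 in B4KO and 1.69 in Isl1KO at DD10 and -0.78, -0.65 and -0.50 at DD16. Cdc20b had -2.45, -2.66 and -3.55 at DD10 and was at background on all later arrays, at least 3.40-fold lower at DD16. Cdc20b also holds Mir449a and Mir449c, whose mature forms share a seed (capitals) and are shown for that reason.
miR-449a-5p: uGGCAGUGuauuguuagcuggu
miR-449c-5p: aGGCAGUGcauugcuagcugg
In the multiciliated cell list as a whole, 10 of 21 tested genes were higher and 5 lower at DD16, against 21.9% and 18.9% of all genes tested. Ccno, Cdc20b and Gmnc, whose fall the rule fixed, are among the 5. Gmnc, a regulator at the top of that program and 1 of the 20 genes left out by name, was at background on all DD16 arrays and at least 47.2-fold lower than at DD10 (adjusted p = 0.000835, limma). Dnaic1 and Rsph1, parts of cilia, were higher by 3.13 and 2.70.

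Cryge, a gamma crystallin of the lens, had -0.91 in WT, 0.16 in B4KO and 0.43 in Isl1KO at DD10 and -3.65, -3.94 and -3.22 at DD16. It was at background at DD23, at least 30.3-fold below DD10. In a lens and surface ectoderm list, which does not hold Cryge, 5 of 19 tested genes were higher and 2 lower at DD16. Of all genes tested, 21.9% were higher and 18.9% lower. Capn3, a calpain, had -0.82, -0.28 and 0.13 at DD10 and -4.08, -4.38 and -3.23 at DD16, where 1 array was above background.

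From DD16 to DD23, 40 of the 101 genes fell further and 1 rose by limma at adjusted p under 0.05 (39.6% and 0.99%, against 22% and 19.3% of the 23424 genes tested). The rule set the same bound on both later days and did not use the difference between them. The median change was -0.64, against 0.01 for all genes tested, and 90 of the 101 were negative. With arrays at background raised as above the median was -0.40, and all genes were not raised for comparison. Most of the 33 genes with signal on no later array then have a fall of 0.376. That value is only the difference between the lowest signals well above background of the DD16 and DD23 arrays. All 40 had lower values at DD23 in each of the 3 lines. Of the 40, 24 had signal on at least 1 array of both days, 8 at DD16 but on no DD23 array, and 8 on no later array, where no fold is given. Of the 38 genes above background on all 6 later arrays 19 passed as lower, by 0.48 to 2.63 in the model. Hmga2 at 2.63, Ebf2 at 2.11 and Slc38a8 at 1.73 (SE 0.24, adjusted p = 0.00365) had the largest falls of these 19. The 8 with signal at DD16 alone have only bounds, from 1.22-fold for Fst to 4.90-fold for Rhcg. Cryge was at least 2.69-fold lower (adjusted p = 0.0023), Meox2 at least 2.05-fold (adjusted p = 0.0112) and Tbx20 at least 1.49-fold (adjusted p = 0.00276). Tbx20 did not pass with the median over its probes, at -0.59 (adjusted p = 0.110). BB199080, an unnamed expressed sequence, was the gene that rose, by 0.87 (SE 0.11, adjusted p = 0.00244), from -4.94, -4.45 and -4.58 to -3.79 in each line.

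Single lines gave the same direction. Of genes above background at DD16 or DD23 in a line, 42 of 58 were lower at DD23 in WT, 50 of 55 in B4KO and 62 of 66 in Isl1KO. The same shares were not counted over all genes. A gene with signal on either day alone is included with its background value on the other day. The medians were -0.52, -0.73 and -1.02. Without the Isl1KO array of DD16 the count of genes called was 26, and without that of DD23 it was 24, in place of 41.

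**Figure D4:**
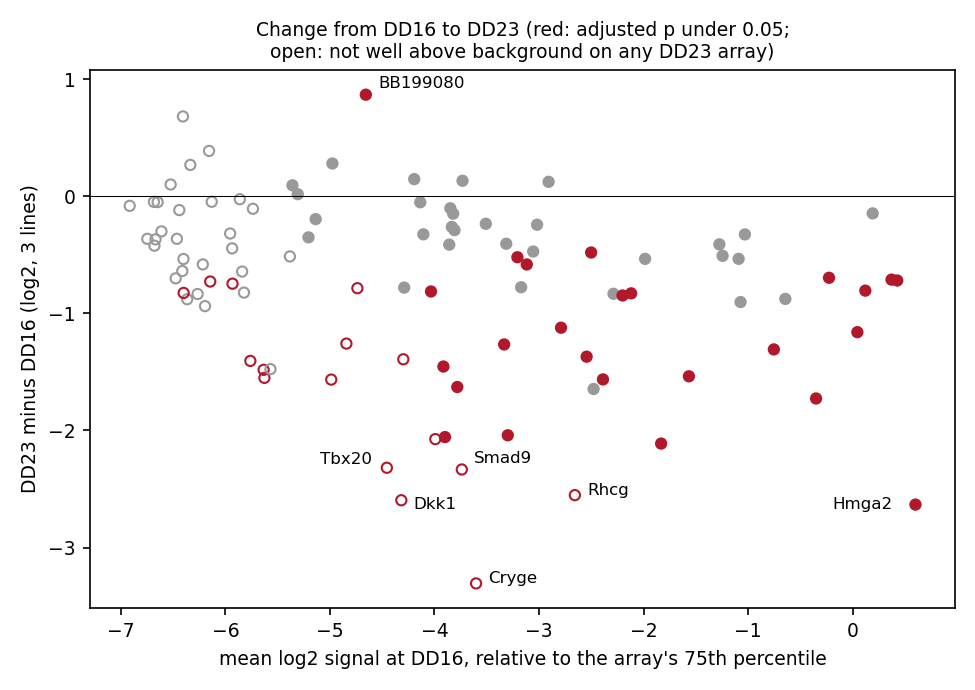
Model change from DD16 to DD23 (log2, 3 lines) against the mean log2 signal at DD16 for the 101 genes. Red points passed at adjusted p under 0.05 (40 lower, 1 higher), and open points were not well above background on any DD23 array, where the change is no measured size. Hmga2 lies farthest right among the labelled genes, and BB199080 is the red point above 0.

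Differences between lines were tested over all days together. Isl1KO against WT gave 0 calls among the 101, with 25 (24.8%) at an unadjusted p under 0.05 by limma against 8.13% of all genes tested, of which 0.00427% were called. B4KO against WT gave 2 (1.98%), where 22.2% of all genes were called, 4.06% as higher and 18.1% as lower. Dusp9 was higher in B4KO by 1.08 (SE 0.25, adjusted p = 0.0296), and its difference between Isl1KO and WT was 1.08 (adjusted p = 0.417). The lincRNA with its probe at chr7:86661434-86661493, in the Mir9-3hg locus, was lower in B4KO by 0.72 (SE 0.17, adjusted p = 0.0278), and was at background on all 6 later arrays. Isl1KO against B4KO gave 5 (4.95%, against 22% of all genes, 3.87% as lower and 18.1% as higher). Capn3 was higher in Isl1KO by 1.05 (SE 0.25, adjusted p = 0.0285). It was above background on only 1 DD16 array and 1 DD23 array, and at DD10 alone Isl1KO was higher than B4KO by 0.41. Tal2, a helix-loop-helix factor of midbrain, Raet1e, Tspan10 and Bpifb5 were lower by 0.94, 0.79, 0.78 and 0.78, with adjusted p from 0.0294 to 0.0376. Bpifb5 was at background on all 6 later arrays, and at DD10 alone Isl1KO was lower than B4KO by 0.22. These counts do not hold when single arrays are left out: B4KO against WT gave 0 without the WT array of DD10 and 7 without that of DD16, and Isl1KO against B4KO gave 0 without the B4KO array of DD16 and 13 without that of DD10.

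At DD10 itself the lines were compared array to array, with no test. A difference of at least 2-fold between any pair of lines was seen in 35 of the 101 (34.7%, against 10.4% of the 19888 genes above background at DD10). By pair, WT was above B4KO in 20 (background 7.17%) and below it in 6 (0.9%). WT was above Isl1KO in 17 (1.5%) and below it in 5 (0.528%). Isl1KO was above B4KO in 2 (5.54%) and below it in 1 (0.513%). WT stood above both knockouts in 11 (10.9% against 0.86%), and both knockouts above WT in 3 (2.97% against 0.246%). With normexp background correction these counts were 20, 6 and 1 in place of 35, 11 and 3. Of the 11, 10 were Dmrt3, Ebf2, Masp1, Gm3764, Mir9-3hg, AI849053, and 4 lincRNAs, of which 2 lie in the Gm3764 locus, 1 beside Mir9-3hg and 1 at chr19:60238375-60238434. Of these, 6 lie in the Mir9-1 and Mir9-3 loci, and those at Gm3764 are not known to be separate transcripts. The excess of WT was 2.58-fold over B4KO and 2.18-fold over Isl1KO for Gm3764. The 3 genes higher in both knockouts were Cryge, by 2.11-fold in B4KO and 2.53-fold in Isl1KO, Dusp9, by 2.08-fold and 2.44-fold, and Grrp1, by 2.05-fold and 2.20-fold.

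**Figure D5:**
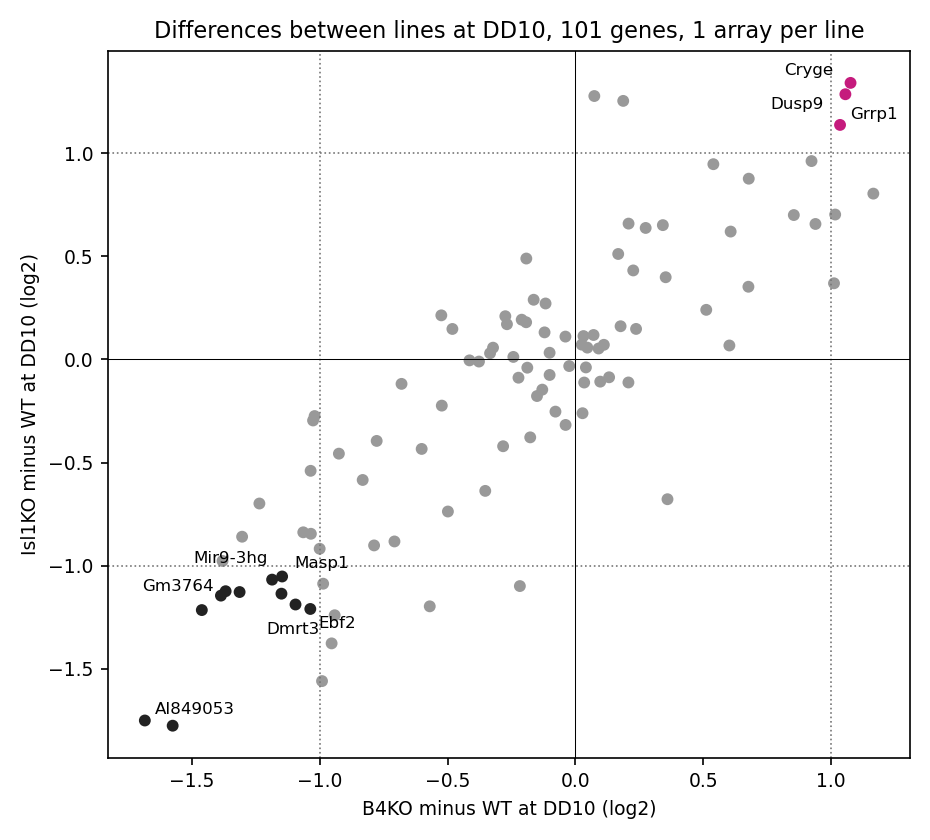
Log2 difference from WT at DD10 in B4KO (horizontal axis) and Isl1KO (vertical axis) for the 101 genes, with 1 array per line and dotted lines at 2-fold. Black points are the 11 genes at least 2-fold higher in WT than in both knockouts, and pink points the 3 genes at least 2-fold lower; lincRNAs and 1 other gene are not labelled. Both axes share the WT array.

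Marker lists of other tissue moved with this pattern. The summed level of 18 forebrain genes outside the 101 was 48.1 in WT, 24.4 in B4KO and 25.8 in Isl1KO at DD10, and between 8.04 and 24.1 later. The forebrain list has 24 genes, of which 23 are on the array and 21 were tested. All 21 were above background on each DD10 array. Being above background on at least 3 arrays was what admitted a gene to testing, so this count is partly set by that filter. The sum of 18 roof plate and choroid plexus genes was 155, 81.6 and 92.6 at DD10 and between 49.1 and 154.7 later, the highest later array being B4KO at DD23. Of these 18, 12 were lower and 3 higher at DD16, against 18.9% and 21.9% of all genes tested. Rspo1, Rspo2, Rspo3, Wnt3a and Wnt8b of this list, and Dmrta1 and Emx1 of the forebrain list, are among the genes left out by name. The rule therefore fixed their lower values at both later days. Retinal identity genes ran the other way at DD10, as given above. By these sums the WT array at DD10 held more forebrain and dorsal midline signal and less retinal signal than the knockout arrays. The order was not particular to these lists. The lens and surface ectoderm sum was 31.6 in WT, 22.4 in B4KO and 21.6 in Isl1KO at DD10. That of the BMP and TGF beta list outside the 101 was 122, 135 and 129. Sums of linear values are weighted to the brightest probes. The part of these sums in the differences between lines was not tested.

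The rule's edge divided genes with close values. The smallest fall over lines and later days was 2.00006 for Gjb2 and 2.01 for Ackr3 just inside, and 1.99 for BC029168 and 1.98 for Orc1 and Pmel just outside. With normexp background correction, which raises dim values, 29 of the 101 met the rule.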

How the data were processed

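RNA of 9 organoid samples was measured on Agilent single-colour (Cy3) arrays. The submitters' processing notes name Agilent Feature Extraction 12.0.3.1 for reading the scans. Per the file headers, background was subtracted from each spot's intensity, spatial trends were removed, and arrays were not normalized to each other. Each array's deposited value table holds a signal that, up to 1 factor for each array, matched the processed intensity within 0.01 on the log2 scale for 99.6% to 99.8% of the probes above 1. Its column medians were 0.084 to 0.117. How dimmer spots were set there is not known.

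Spots of a probe were averaged, and 102 of 56605 gene probes with outlier flags were left out. Levels are log2 processed intensity minus the array's log2 75th percentile (897 to 1138). The probe with the highest mean over the 9 arrays stood for a gene name. Probe positions are mm9, per the file headers. RefSeq tables of GRCm38.p6 gave names (69 of 101 genes matched), microRNAs and promoters only. Genes well above background on at least 3 arrays, 23424 in number, were tested with limma 3.58.1 in R 4.3.3, with line and day as additive terms (residual degrees of freedom 4, prior 2.005) and p adjusted by Benjamini-Hochberg over all of them, called at 0.05. Standard errors are from this model, whose spread is departure from additivity. The p-values thus measure only the spread between these 9 samples, and the number of arrays limits their precision. A day with no array well above background gives a bound ("at least"): the brighter day's mean is set against the higher of the value and the lowest signal well above background on each array of the dimmer day. The script was tested on simulated data.

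The genes, the lists and the tests were chosen with earlier results of these data known. Named genes are those in a list, the 10 brightest, the 10 with the largest fall, those at the threshold, the 6 with the largest change each way from DD16 to DD23, those called between lines, the 6 widest between lines at DD10, and up to 4 leading genes of each list. Some genes that this rule names are not reported here. Other genes of the 101 were named by role after their values were seen. Lists on 17 tissues and pathways were counted. Their summed levels add linear values. Over all genes tested, 21.9% were higher and 18.9% lower at DD16 than at DD10. Lists not named in the report gave, as higher and lower of genes tested at DD16 against DD10, 4 and 5 of 23 for pluripotent cells, 3 and 0 of 4 for endoderm, 3 and 3 of 12 for neural crest, 1 and 0 of 7 for endothelium, 9 and 5 of 28 for tight junctions, 1 and 2 of 12 for ventral eye, 2 and 8 of 23 for neural plate factors and 2 and 2 of 8 for germline genes. Alternatives were quantile normalization, normexp, other filters and probes, the deposited values, 1 slide alone, other thresholds and each array left out.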

Additional observations from a re-analysis of the deposited data

Results flagged for a closer look

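Postn, the matrix protein periostin, moved in opposite directions from DD16 to DD23 in different lines. It went from -4.17 to -3.08 in WT and from -3.69 to -5.34 in Isl1KO, a difference between the changes of 2.74 on the log2 scale, and from -3.71 to -4.40 in B4KO. Each value is a single array, 3 of these 6 arrays were above background, and the difference was not tested.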

How the results depend on the processing

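The number of genes meeting the rule was 196 with a fall of 1.5, 52 with 2.5 and 29 with normexp background correction, all 29 being among the 101; quantile normalization gave 107 (96 shared), the probe brightest at DD10 103 (100 shared) and the deposited values 102 (101 shared). The 41 calls from DD16 to DD23 became 22 of 38 genes fitted when every array had to be above background, and 24 to 45 when arrays were left out in turn; with WT and Isl1KO alone they were 36. The 0 calls of Isl1KO against WT became 2 without a filter on dim probes. The 2 calls of B4KO against WT became 6 with quantile normalization, 0 without the filter, 5 with the median over probes and 0 to 7 with arrays left out. The 5 calls of Isl1KO against B4KO became 9 with normexp, 0 without the filter and 0 to 13 with arrays left out. At DD10, 35 genes past 2-fold in any pair became 20 with normexp, 58 at 1.5-fold and 0 at 4-fold. The 11 with WT above both knockouts became 6, 23 and 0, and the 3 with both above WT became 1, 10 and 0. The cause of these changes was not tested. Among single genes, 0 reversed, and Tbx20 lost its call with the median over probes (-0.59, adjusted p = 0.110).

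Over all genes, calls of DD16 against DD10 were 9549, and 4855 with 1 slide alone, 5858 without the Isl1KO array of DD10 and 5879 without that of DD16. Isl1KO against WT went from 1 call to 11 with normexp, 4520 without the filter, 3 with 1 slide alone and 0 to 2 with arrays left out. B4KO against WT went from 5195 to 3409 at the lowest and Isl1KO against B4KO from 5152 to 3283, each with an array left out. No paired analysis was possible because the labels carry no replicate numbers; line is already a term of the model. Where an array is left out, its line and day are assumed to vary like the others. Signal close to background limits the falls of 33 genes to bounds at both later days.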
